A study of Mus musculus with 4 samples.

Results

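The 92 genes described here are nuclear genes named for the mitochondrial respiratory chain and the ATP synthase. They are all the gene symbols that begin with Nduf, Uqcr or Atp5, or with Cox4, Cox5, Cox6, Cox7 or Cox8, or that name a succinate dehydrogenase subunit, and that were listed in all 4 libraries. They are 92 of 12698 genes listed in every library. By complex they comprise 41 genes of complex I, 8 assembly factors of complex I, 3 genes of complex II, 8 of complex III, 14 of complex IV and 18 of complex V. Of the 92, 5 are annotated as processed pseudogenes and are counted with the complex of their symbol: Ndufa11b, Ndufb4c, Ndufs6b, Uqcrh-ps1 and Atp5c1-ps. Sdhd was not analysed here, and no mitochondrially encoded subunit was among the genes listed.

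The respiratory chain passes electrons from NADH through complex I and from succinate through complex II to ubiquinone, on to cytochrome c through complex III, and to oxygen through complex IV. Complexes I, III and IV pump protons across the inner mitochondrial membrane, and complex V, the ATP synthase, uses the returning protons to make ATP. T cells use this route in a resting state and during memory, and add glycolysis when activated.

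The cells were intraepithelial lymphocytes of the mouse colon, live CD3+ CD8α+ T cells sorted by their T-cell receptor and profiled by droplet single-cell RNA sequencing from the 3′ end of the mRNA. There were 4 libraries and 1 library per group: TCRβ+ cells of Tcf7KO mice, TCRβ+ cells of Tcf7WT mice, TCRγδ+ cells of Tcf7KO mice and TCRγδ+ cells of Tcf7WT mice. All 4 libraries carry the strain label E8IcreTcf7fl/fl, a Cre driven from a CD8α enhancer with loxP sites in Tcf7, the gene of the transcription factor TCF-1. The genotype label alone tells Tcf7KO from Tcf7WT, and the labels do not say how many mice went into a library. The comparison of genotypes asks what loss of Tcf7 does within each sort. With 1 library per group, neither a difference between genotypes nor one between sorts has a replicate check, and the 95% intervals given for them are exact intervals that cover counting error only.

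The libraries held 5785, 7603, 1511 and 1888 cells in the order just given, with 18372180, 20289960, 7184668 and 6195292 UMIs (unique molecular identifiers, each counting 1 captured mRNA molecule). The median cell had 2860, 2431, 4366 and 3188 UMIs. Tcf7 read 106.9 CPM (UMIs scaled to a total of 1000000 per library) in TCRβ Tcf7KO cells and 147.9 CPM in TCRβ Tcf7WT cells, and 14.6 CPM in TCRγδ Tcf7KO cells and 45.7 CPM in TCRγδ Tcf7WT cells, so its mRNA was lower in each library labelled Tcf7KO but was not lost. A 3′ count can lie outside a deleted exon and does not by itself check a deletion. Of 12 T-cell markers, 10 were listed in each library and none of those was at 0, and their summed level was between 11170 and 12890 CPM. From 1 to 10 cell barcodes were shared between any 2 libraries. Epithelial-marker cells, defined by at least 1% of their UMIs in 22 epithelial genes, numbered 3, 11, 19 and 18. They held 0.595%, 0.642%, 6.12% and 1.65% of the UMIs, the most in the TCRγδ Tcf7KO library, and the 92 genes made up between 4.93% and 6.58% of their UMIs. The main results are given with and without those cells.

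The sequences behind 2 of the results below are shown first. Ndufa4 was the only member that passed the test between Gzma-positive and Gzma-negative cells over all cells, though not in every setting. Its protein was first described as a complex I subunit and is now known as a subunit of complex IV, and by its symbol it is counted here with complex I. Its 3′ untranslated region holds 7 bases complementary to bases of the hairpin of Mir147. That hairpin lies within AA467197, the mouse gene for the Ndufa4-like protein NMES1. The Ndufa4 stretch lies at chr6:11900472-11900493 on the minus strand and the hairpin at chr2:122640803-122640881 on the plus strand (GRCm38), and capitals mark the complementary bases.
Ndufa4 site: tcagaagccatCCGCACAattt
Mir147 hairpin: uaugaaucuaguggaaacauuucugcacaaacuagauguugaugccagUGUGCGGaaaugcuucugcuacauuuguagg

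The letters CCGCACA, searched on the sense strand, stood in the 3′ untranslated region of 1 of 85 members with an annotated one, and in 296 of 13042 genes (2.27%). A match of these letters is a description and does not show binding.

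Atp5k and Atp5md, small membrane subunits of the ATP synthase, were the well-measured members most above Tcf7WT in both Tcf7KO libraries. Their RefSeq promoter windows run from 250 bases before to 50 bases after the annotated start, at chr5:108434350-108434649 and chr19:47090598-47090897, both on the minus strand (GRCm38.p6). Capitals in the Atp5k window mark a core motif of NRF1, a transcription factor known for its sites in respiratory chain promoters.
Atp5k promoter: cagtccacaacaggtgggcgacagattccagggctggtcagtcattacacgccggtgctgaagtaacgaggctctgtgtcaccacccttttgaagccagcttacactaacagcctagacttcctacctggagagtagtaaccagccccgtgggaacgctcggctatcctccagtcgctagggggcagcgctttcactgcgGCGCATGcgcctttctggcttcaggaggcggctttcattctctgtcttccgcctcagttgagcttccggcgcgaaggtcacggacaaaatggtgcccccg
Atp5md promoter: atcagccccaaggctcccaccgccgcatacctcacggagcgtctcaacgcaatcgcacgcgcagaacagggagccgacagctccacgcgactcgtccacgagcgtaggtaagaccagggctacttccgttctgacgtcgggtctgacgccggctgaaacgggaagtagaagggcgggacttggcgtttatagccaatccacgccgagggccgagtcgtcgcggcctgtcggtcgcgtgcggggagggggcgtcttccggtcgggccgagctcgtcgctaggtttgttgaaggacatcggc

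Promoter windows were matched for 73 of the 92 genes. On either strand the NRF1 core letters GCGCATG stood in the windows of 14 of 73 members (19.2%) and of 1192 of 27025 genes (4.41%). The YY1 letters AAGATGGC stood in those of 11 members (15.1%) and 3.19% of genes, and the ETS letters CCGGAAGT in those of 4 members (5.48%) and 4.31% of genes. The Atp5md window held none of these letters as searched, which says nothing on binding.

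The 92 genes together took 2.21% of UMIs in TCRβ Tcf7KO cells and 2.25% in TCRβ Tcf7WT cells, and 2.50% in TCRγδ Tcf7KO cells and 2.29% in TCRγδ Tcf7WT cells. Without epithelial-marker cells, the summed levels were 21960 CPM in TCRβ Tcf7KO cells and 22306 CPM in TCRβ Tcf7WT cells, and 23266 CPM in TCRγδ Tcf7KO cells and 22232 CPM in TCRγδ Tcf7WT cells. Every cell left after that step had at least 1 UMI of a member. Among single cells the share was wider than between libraries. In Gzma-negative TCRβ Tcf7WT cells, for example, the 10th percentile, the median and the 90th percentile were 1.66%, 2.19% and 2.81%. The median cell of that group had 2396 UMIs, so counting error widens the spread of single cells far more than that of libraries. Its part in the spread was not tested.

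**Figure D1:**
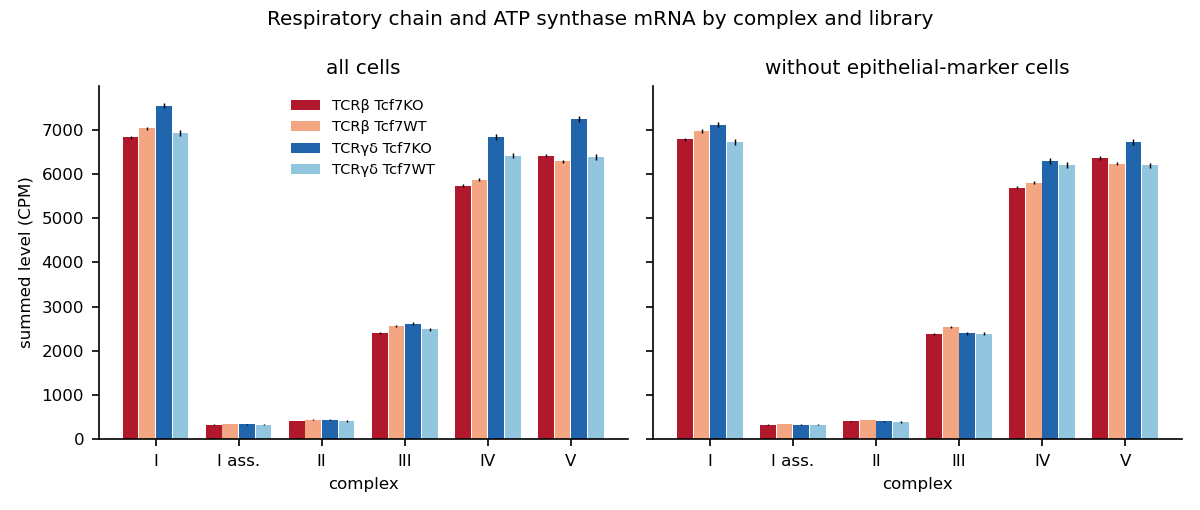
Summed level in CPM (y axis) of the members of each complex (x axis) in the 4 libraries, over all cells (left) and without epithelial-marker cells (right). Bars show the level and black lines its 95% Poisson interval, and the TCRγδ Tcf7KO library stood highest for complexes I, IV and V in both panels.

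Complexes I, IV and V carried most of these UMIs. The levels per complex are counts of mRNA molecules captured at the 3′ end and are not divided by transcript length. Complex I summed to 6830 CPM in TCRβ Tcf7KO cells and 7030 CPM in TCRβ Tcf7WT cells, and to 7547 CPM in TCRγδ Tcf7KO cells and 6922 CPM in TCRγδ Tcf7WT cells. Complex IV summed to 5736, 5867, 6836 and 6418 CPM and complex V to 6414, 6292, 7250 and 6389 CPM in the same 4 libraries. Complex II, the smallest, summed to between 408.1 and 443.0 CPM. The assembly factors of complex I summed to between 327.3 and 339.9 CPM. Without epithelial-marker cells complex I summed to 6788, 6971, 7117 and 6727 CPM, complex IV to 5693, 5799, 6296 and 6208 CPM and complex V to 6364, 6231, 6724 and 6194 CPM in the libraries in the same order.

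Several subunits of the complexes were counted at very low levels. Ndufa8, a complex I subunit, had 5, 10, 3 and 4 UMIs in the 4 libraries, under 1 CPM in each. Atp5d, the delta subunit of the ATP synthase, had between 2.96 and 5.97 CPM, whereas Atp5a1, the alpha subunit of the same enzyme, had between 432.6 and 557.3 CPM. Ndufa12 and Ndufab1, also of complex I, stayed between 4.73 and 19.5 CPM. Ndufa6 of complex I, between 14.5 and 35.1 CPM, and Cox7a2 of complex IV, between 10.4 and 32.1 CPM, were also low. What sets these low counts was not tested, and ratios of these genes rest on few molecules. A further group shares sequence with copies: 20 members had a transcript of another gene at 95% identity or more over at least 150 bases of the 400 bases nearest the 3′ end. Among them Cox7c, Atp5g2, Atp5l and the pseudogene Ndufb4c had a copy at 100% identity. How such reads were divided is not given in the sources used here.

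Between genotypes, few members differed in TCRβ cells. Of 88 members with at least 100 UMIs over both libraries, 6 were at least 25% higher in TCRβ Tcf7KO cells, against a background of 5.49% of 10764 genes, and 2 were at least 20% lower, against 9.57%. The median log2 ratio of the 88 was -0.03, beside -0.07 for all genes measured. The sum of all members was slightly lower, with a log2 ratio of -0.03 (95% interval -0.03 to -0.02). Complex III had the log2 ratio -0.09 (-0.11 to -0.08) and complex V 0.03 (0.02 to 0.04). Such sums weigh abundant genes most and need not hold for each member. Uqcrh, the most abundant gene of complex III, read 931.7 CPM in Tcf7KO and 1060 CPM in Tcf7WT cells. In complex V, 9 of 18 members were above 0 and 9 below, and only Atp5k and Atp5md were at least 25% higher. Scaling moved the sign of the sum of all members: with TMM factors in place of plain totals its log2 ratio was 0.04. Without epithelial-marker cells 6 of 87 members were at least 25% higher, against 5.21%, and 2 at least 20% lower, against 9.36%.

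The member differences that stood out in TCRβ cells were few and mostly upward. Atp5k read 256.7 CPM in Tcf7KO and 147.1 CPM in Tcf7WT cells, a log2 ratio of 0.80 (95% interval 0.74 to 0.87); a transcript of another gene matches its 3′ end at 95.7% identity. Atp5md read 112.5 CPM in Tcf7KO and 63.3 CPM in Tcf7WT cells, a log2 ratio of 0.83 (0.73 to 0.93). Ndufa12 read 8.71 CPM in Tcf7KO and 4.73 CPM in Tcf7WT cells, a log2 ratio of 0.88 (0.51 to 1.26). These 3 were the members at least 1.5-fold apart, and none was 1.5-fold lower. The background for a 1.5-fold difference was 1.66% of genes higher and 2.24% lower. The counts were again 3 and 0 without epithelial-marker cells, against 1.65% and 2.08%.

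The other members had smaller ratios. In complex V, Atp5mpl, a small subunit, was at 0.22 and Atp5l, a membrane subunit, at 0.18. Atp5b, the catalytic beta subunit, read 591.1 CPM in Tcf7KO and 637.4 CPM in Tcf7WT cells, a log2 ratio of -0.11. Ndufa3, an accessory subunit of complex I, read 289.5 CPM in Tcf7KO and 195.6 CPM in Tcf7WT cells, a log2 ratio of 0.57 (0.51 to 0.63). Cox7c, of complex IV, read 405.5 CPM in Tcf7KO and 328.9 CPM in Tcf7WT cells, a log2 ratio of 0.30 (0.25 to 0.35). Ndufa4 went the other way, with 456.0 CPM in Tcf7KO and 552.5 CPM in Tcf7WT cells, a log2 ratio of -0.28 (-0.32 to -0.24). The 2 members at least 20% lower were assembly factors of complex I, Ndufaf1 at -0.37 and Ndufaf4 at -0.32 on the log2 scale.

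In TCRγδ cells most members read higher in Tcf7KO than in Tcf7WT, by small amounts. Of 87 members measured, 75 had a log2 ratio above 0, and the median was 0.14, beside -0.03 for all genes. Of these, 10 were at least 25% higher, against a background of 10.1%, and 0 were at least 20% lower, against 12.8%, so the count of members past that fold was near the background. The sum of all members had a log2 ratio of 0.12 (95% interval 0.11 to 0.14), and by complex it was largest for complex V at 0.18 (0.16 to 0.20). At least 1.5-fold higher were 3 members, Atp5k, Ndufa12 and Cox7a1, against a background of 4.61%, and 0 were 1.5-fold lower, against 3.42%. Without epithelial-marker cells only Ndufa12 was 1.5-fold higher, against 1.83%, and 0 of 86 were 1.5-fold lower, against 3.72%.

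Epithelial-marker cells and depth moved with that difference. The TCRγδ Tcf7KO library held 6.12% of its UMIs in epithelial-marker cells, against 1.65% in TCRγδ Tcf7WT, and its median cell had 4366 UMIs, against 3188. Without those cells the log2 ratio of the sum was 0.07, the median of 86 members measured was 0.09, and 4 members instead of 10 were at least 25% higher, against a background of 6.39%. Among cells of 2000 to 4000 UMIs the log2 ratio of the sum was -0.02. The part of depth in the difference was not tested.

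Atp5k and Atp5md were again among the members with the higher ratios. In TCRγδ cells Atp5k read 335.9 CPM in Tcf7KO and 211.0 CPM in Tcf7WT, a log2 ratio of 0.67 (95% interval 0.57 to 0.77), and 0.57 without epithelial-marker cells. Atp5md read 171.8 CPM in Tcf7KO and 116.5 CPM in Tcf7WT, a log2 ratio of 0.56 (0.43 to 0.69), and 0.51 without epithelial-marker cells. Ndufa12 read 11.3 CPM in Tcf7KO and 6.46 CPM in Tcf7WT, from 81 and 40 UMIs. Together with Ndufa12, these 2 genes were the 3 of 87 members (3.45%) at least 25% higher in Tcf7KO in both sorts, and 2.40% of 9108 genes met the same criterion. None of the 87 was at least 20% lower in both.

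Within Gzma-positive and Gzma-negative cells the Atp5k difference had a similar size. Without epithelial-marker cells the log2 ratio of Atp5k, Tcf7KO over Tcf7WT, was 0.71 (95% interval 0.54 to 0.88) in Gzma-positive and 0.82 (0.74 to 0.90) in Gzma-negative TCRβ cells. In TCRγδ cells it was 0.59 (0.47 to 0.72) in Gzma-positive and 0.55 (0.32 to 0.78) in Gzma-negative cells. The interval excluded 0 in all 4 of these class comparisons.

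The ratio of Cox7a1, the heart and muscle isoform of a complex IV subunit, did not hold without the epithelial-marker cells. In all cells it read 13.2 CPM in TCRγδ Tcf7KO and 6.62 CPM in TCRγδ Tcf7WT, a log2 ratio of 0.999 (95% interval 0.46 to 1.56). Without epithelial-marker cells it read 2.08 CPM in TCRγδ Tcf7KO and 3.61 CPM in TCRγδ Tcf7WT, from 14 and 22 UMIs, a log2 ratio of -0.80 with a 95% interval of -1.88 to 0.23 that includes 0. Other tissue-restricted isoforms were near absent: Cox6a2, the muscle form, had between 5 and 20 UMIs per library, and Cox6b2, the testis form, between 8 and 31. Cox8a, the widely expressed form, read between 1418 and 1591 CPM, and Cox4i1 between 874.6 and 1032 CPM. Of the 3 genes for the same subunit c of the ATP synthase ring, Atp5g2 read 322.9 to 365.5 CPM, Atp5g3 272.2 to 346.4 CPM and Atp5g1 225.8 to 277.3 CPM, so these values lay close together and the ranges of Atp5g2 and Atp5g3, and of Atp5g3 and Atp5g1, overlapped.

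Between sorts, members tended to read higher in TCRγδ than in TCRβ cells of the Tcf7KO libraries. In the Tcf7KO libraries, 22 of 88 members were at least 25% higher in TCRγδ cells, against a background of 14.8%, and 0 were at least 20% lower, against 20.5%. The median log2 ratio was 0.19, beside -0.07 for all genes. The sum had a log2 ratio of 0.18 (95% interval 0.17 to 0.19), largest for complex IV at 0.25 (0.24 to 0.27). Without epithelial-marker cells the sum was at 0.08, complex IV at 0.15 and complex III at 0.01. In those cells 11 of 86 members were at least 25% higher, against 11.5%, and 1 was at least 20% lower, against 22.4%. The median cell had 4366 UMIs in TCRγδ Tcf7KO and 2860 UMIs in TCRβ Tcf7KO, and among cells of 2000 to 4000 UMIs the log2 ratio of the sum was 0.01.

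In the Tcf7WT libraries the sum had a log2 ratio between sorts of 0.03 (95% interval 0.02 to 0.03) in all cells and -0.00 (-0.01 to 0.00) without epithelial-marker cells. Scaling moved it: it was 0.10 with TMM factors and 0.09 with DESeq2 size factors, and -0.03 among cells of 2000 to 4000 UMIs. Members went both ways: of 86, 16 were at least 25% higher in TCRγδ cells, against a background of 13.2%, and 7 were at least 20% lower, against 19.8%. Without epithelial-marker cells the counts were 14, against 12.3%, and 7, against 20.3%. Complex IV was higher in TCRγδ cells, with a log2 ratio of 0.13 (0.11 to 0.15), and complex II lower, at -0.10 (-0.16 to -0.03). Atp5a1 and Atp5b, the alpha and beta subunits of the ATP synthase, were at -0.37 and -0.35, and Ndufa9 of complex I was at -0.50.

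**Figure D2:**
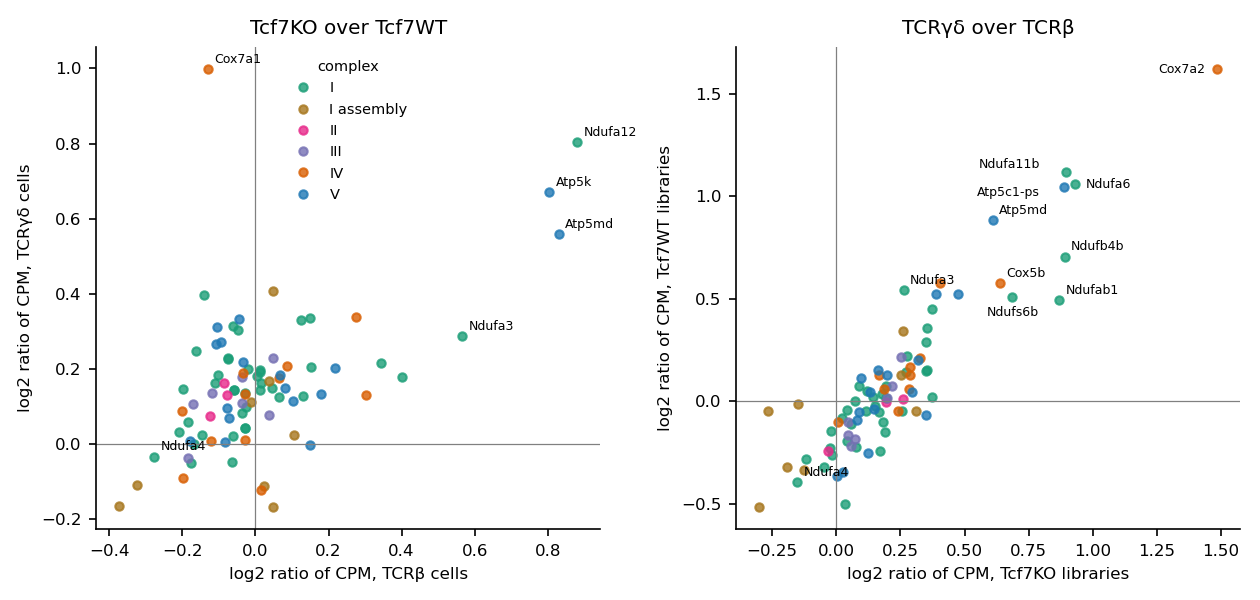
Log2 ratio of CPM for each member with at least 100 UMIs in both comparisons shown, coloured by complex. The left panel sets Tcf7KO over Tcf7WT in TCRγδ cells (y axis) against TCRβ cells (x axis), with Atp5k, Atp5md and Ndufa12 high on both axes; the right panel sets TCRγδ over TCRβ in Tcf7WT (y axis) against Tcf7KO libraries (x axis), with Cox7a2 highest on both.

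The larger sort differences lay mostly in sparsely counted genes and pseudogenes. At least 1.5-fold higher in TCRγδ cells were 11 of 88 members in Tcf7KO, against a background of 8.45%, and 6 of 86 in Tcf7WT, against 6.84%. No member was 1.5-fold lower in either, against 7.2% and 6.89%. Without epithelial-marker cells 6 of 86 were 1.5-fold higher in Tcf7KO, against 5.47%, and 6 of 86 in Tcf7WT, against 6.16%, and 0 were 1.5-fold lower, against 8.29% and 7.22%. Over all cells the 6 in Tcf7WT were Ndufa6, Ndufa11b, Ndufb4b, Cox7a2, Atp5c1-ps and Atp5md. The 11 in Tcf7KO over all cells held the same 6 with Ndufab1, Ndufs6b, Cox5b, Cox7a1 and Atp5d. Across both genotypes, 14 of 86 members (16.3%) were at least 25% higher in TCRγδ cells, beside 8.65% of 10036 genes, and 10 of 86 (11.6%) were without epithelial-marker cells, beside 7.59%. Cox7a2, a liver-type and widely expressed complex IV subunit, read 29.5 CPM in TCRγδ and 10.6 CPM in TCRβ Tcf7KO cells, a log2 ratio of 1.48 (95% interval 1.20 to 1.77). In Tcf7WT cells it read 32.1 CPM in TCRγδ and 10.4 CPM in TCRβ, a log2 ratio of 1.62 (1.33 to 1.91). Without epithelial-marker cells these ratios were 1.37 in Tcf7KO and 1.64 in Tcf7WT. Ndufa6, an accessory subunit of complex I, was at 0.93 in Tcf7KO and 1.06 in Tcf7WT, and at 0.88 and 1.04 without epithelial-marker cells. The pseudogenes Ndufa11b and Atp5c1-ps were at 0.90 and 0.89 in Tcf7KO, and at 1.12 and 1.04 in Tcf7WT, and without epithelial-marker cells they were at 0.88 and 0.83 in Tcf7KO, and at 1.08 and 1.02 in Tcf7WT. Their parent genes did not share these ratios: Ndufa11 was at 0.19 in Tcf7KO and 0.07 in Tcf7WT, and Atp5c1 at 0.09 and -0.05.

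Among better counted members, Cox5b and Cox7c of complex IV and Atp5md, Atp5k and Atp5l of complex V were at least 25% higher in TCRγδ cells of both genotypes. Without epithelial-marker cells Cox5b, Atp5md and Atp5l still were, whereas Cox7c and Atp5k were not. Atp5md was at 0.61 (95% interval 0.51 to 0.71) in Tcf7KO and 0.88 (0.75 to 1.01) in Tcf7WT, and Atp5k at 0.39 (0.32 to 0.46) and 0.52 (0.43 to 0.61). Without epithelial-marker cells Atp5md was at 0.52 in Tcf7KO and 0.85 in Tcf7WT, and Atp5k at 0.21 and 0.44. Cox5b read 269.9 CPM in TCRγδ and 173.2 CPM in TCRβ Tcf7KO cells, a log2 ratio of 0.64 (95% interval 0.56 to 0.72), and 213.4 CPM in TCRγδ and 143.1 CPM in TCRβ Tcf7WT cells, a log2 ratio of 0.58 (0.48 to 0.67). Cox7c was at 0.41 in Tcf7KO and 0.58 in Tcf7WT cells, and Atp5l at 0.47 and 0.52. Without epithelial-marker cells Cox5b was at 0.47 in Tcf7KO and 0.51 in Tcf7WT, Cox7c at 0.28 and 0.52, and Atp5l at 0.41 and 0.49. Among cells of 2000 to 4000 UMIs the Tcf7KO ratio of Cox5b was 0.32 and that of Atp5md 0.40. Cox7c and Atp5l have copies at 100% identity elsewhere in the genome.

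Transcript length moved with the member ratios in 3 of the 4 library comparisons. Across 84 members with a known length, the Spearman correlation of length with the log2 ratio of TCRγδ over TCRβ in Tcf7WT was -0.46, beside -0.00 over 10122 genes. For Tcf7KO over Tcf7WT in TCRβ cells it was -0.31 over 86 members, beside 0.07 over 10585 genes. For TCRγδ over TCRβ in Tcf7KO it was -0.27 over 86 members, beside -0.16 over 10073 genes, and for Tcf7KO over Tcf7WT in TCRγδ cells it was 0.11 over 85 members, beside -0.18 over 9090 genes. The member values without epithelial-marker cells were -0.45, -0.35, -0.32 and 0.04 in the order just given. In each comparison the points share the same 2 libraries and are not independent. For TCRγδ over TCRβ in Tcf7WT, the median for members under 600 bases was 0.17 on the log2 scale, beside 0.14 for all 319 genes of that length. In Tcf7KO it was 0.26, beside 0.17. For Tcf7KO over Tcf7WT it was 0.05 in TCRβ cells, beside 0.03 for 357 genes, and 0.14 in TCRγδ cells, beside 0.08 for 283 genes. Without epithelial-marker cells the Tcf7KO sort median was 0.15, beside 0.13, and the TCRγδ genotype median 0.10, beside 0.07. Atp5k (371 bases) and Ndufa3 (515 bases) belong to that class. Whether short transcripts were captured unequally between libraries was not tested.

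Granzyme A is a serine protease of cytotoxic granules. At least 1 Gzma UMI was counted in 32.6% of TCRβ Tcf7KO and 9.94% of TCRβ Tcf7WT cells, and in 87.8% of TCRγδ Tcf7KO and 61.4% of TCRγδ Tcf7WT cells. Thinned to 1500 UMIs per cell, the shares were 27.98%, 8.91%, 83.1% and 58.6%. Among epithelial-marker cells, which should lack the gene, 1 of 3, 1 of 11, 11 of 19 and 3 of 18 had a Gzma UMI. These cells are few, and in the TCRγδ Tcf7KO library their median depth was 22420 UMIs, so a low Gzma count there need not mark a Gzma-expressing cell.

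The median depth was 3174 UMIs in Gzma-positive and 2738 UMIs in Gzma-negative TCRβ Tcf7KO cells, and 2733 against 2397 UMIs in TCRβ Tcf7WT cells, whereas in TCRγδ cells it was 4358 against 4454 UMIs in Tcf7KO and 3197 against 3149 UMIs in Tcf7WT.

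Within each library the 92 genes took a smaller share of UMIs in Gzma-positive than in Gzma-negative cells. The summed level was 21830 CPM in Gzma-positive and 22280 CPM in Gzma-negative TCRβ Tcf7KO cells, and 21130 CPM against 22710 CPM in TCRβ Tcf7WT cells. In TCRγδ Tcf7KO cells it was 24310 CPM in Gzma-positive and 29440 CPM in Gzma-negative cells, and in TCRγδ Tcf7WT cells 22400 CPM against 23840 CPM. The log2 ratios in these 4 libraries were -0.03, -0.10, -0.28 and -0.09, all below 0. Without epithelial-marker cells they were -0.04, -0.12, -0.09 and -0.07, so the low value of the TCRγδ Tcf7KO library moved with those cells. With granzyme genes also left out of the total, they were -0.01, -0.09, -0.05 and -0.04.

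**Figure D3:**
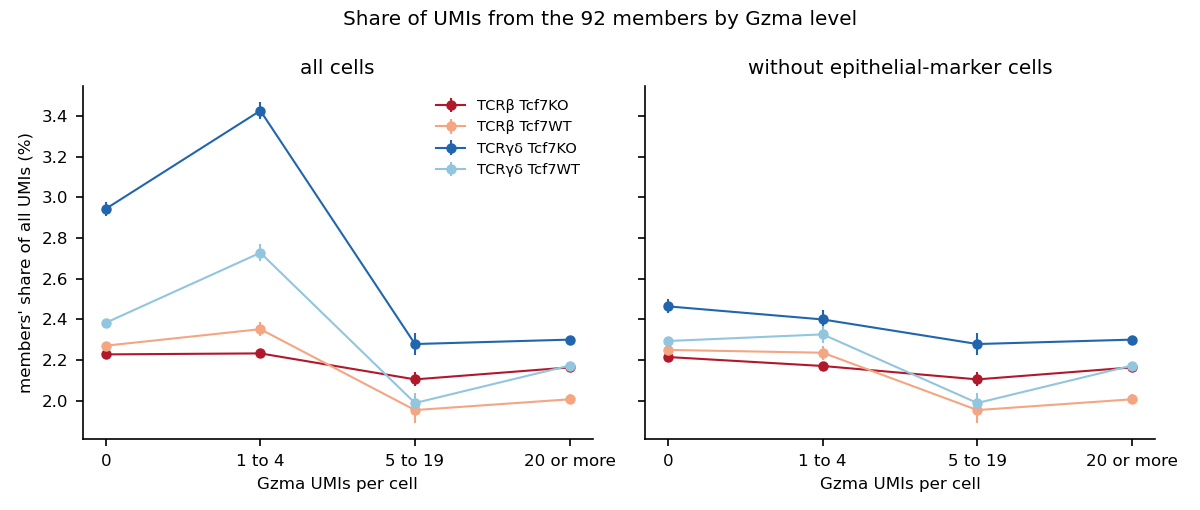
Share of all UMIs that came from the 92 members (y axis, percent, axis not starting at 0) in cells with 0, 1 to 4, 5 to 19 and 20 or more Gzma UMIs (x axis), in the 4 libraries, over all cells (left) and without epithelial-marker cells (right). Vertical lines are 95% binomial intervals, and in each library both groups with 5 or more Gzma UMIs lie below the group with 0.

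Cells with 5 or more Gzma UMIs gave a smaller share than cells with 0 in each library. Without epithelial-marker cells, TCRβ Tcf7WT cells with 0, 1 to 4, 5 to 19 and 20 or more Gzma UMIs gave 2.25%, 2.24%, 1.95% and 2.01% of their UMIs from members. TCRγδ Tcf7WT cells gave 2.29%, 2.33%, 1.99% and 2.17%, TCRβ Tcf7KO cells 2.22%, 2.17%, 2.11% and 2.16%, and TCRγδ Tcf7KO cells 2.46%, 2.40%, 2.28% and 2.30%. Gzma itself took between 2.24% and 2.61% of UMIs in the highest group, which by itself lowers the share of every other gene there.

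Gene by gene, Ndufa4 was the only member called over all cells, and a few others were called in other settings given below. Over the 8 sums of Gzma-positive and Gzma-negative cells in 4 libraries, edgeR's quasi-likelihood test with a term for the library called 155 genes higher (1.3% of 11932) and 103 lower (0.863%) in Gzma-positive cells at an adjusted p under 0.05. Of 89 members tested, 0 were called higher and 1 lower. At an unadjusted p under 0.05, edgeR gave 1 member higher, against 9.03% of all genes, and 15 lower, against 9.02%. DESeq2's Wald test, at an adjusted p under 0.05, called 0 of 92 members higher, against 1.85% of genes, and 1 lower, against 1.27%. The median log2 ratio of the 89 was -0.09, beside -0.01 for all genes, and without epithelial-marker cells it was -0.02, beside 0.00. The test measures the spread of the Gzma difference over 4 libraries that differ in sort and genotype.

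Ndufa4 read 383.6 CPM in Gzma-positive and 495.7 CPM in Gzma-negative TCRβ Tcf7KO cells, and 413.1 CPM against 570.1 CPM in TCRβ Tcf7WT cells. In TCRγδ Tcf7KO cells it read 390.1 CPM in Gzma-positive and 534.4 CPM in Gzma-negative cells, and in TCRγδ Tcf7WT cells 376.4 CPM against 489.3 CPM. The Gzma-positive values thus lay between 376.4 and 413.1 CPM and the Gzma-negative values between 489.3 and 570.1 CPM, in the same sums that the test used. Its log2 ratio was -0.37 ± 0.05 (SE, adjusted p = 0.0207 by edgeR), lower in 4 of 4 libraries. Without epithelial-marker cells it was -0.35 ± 0.05, with an adjusted p of 0.00267 by edgeR.

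The difference in Ndufa4 did not rest on the epithelial-marker cells, but its call was lost without either TCRβ library, with no library block and with a split on Gzmb. Without the TCRβ Tcf7KO library its log2 ratio was -0.39 with an adjusted p of 0.112, and without the TCRβ Tcf7WT library -0.36 with 0.151, both by edgeR. With no library block it was -0.38 with an adjusted p of 0.14, and between cells with and without a Gzmb UMI -0.27 with 0.347, both by edgeR. Over the 16 alternative settings the log2 ratio stayed between -0.49 and -0.27, and it passed the threshold in 12, with adjusted p-values from 4.2e-06 to 0.347. Its library level was lower where the Gzma share was larger: 456.0 CPM in TCRβ Tcf7KO, where 32.6% of cells were Gzma-positive, and 552.5 CPM in TCRβ Tcf7WT, where 9.94% were. It was 410.2 CPM in TCRγδ Tcf7KO, at 87.8%, and 419.7 CPM in TCRγδ Tcf7WT, at 61.4%. Within Gzma-negative TCRβ cells the genotype difference was still -0.20 (95% interval -0.25 to -0.16), and within Gzma-positive TCRβ cells it was -0.11 (-0.22 to 0.00).

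**Figure D4:**
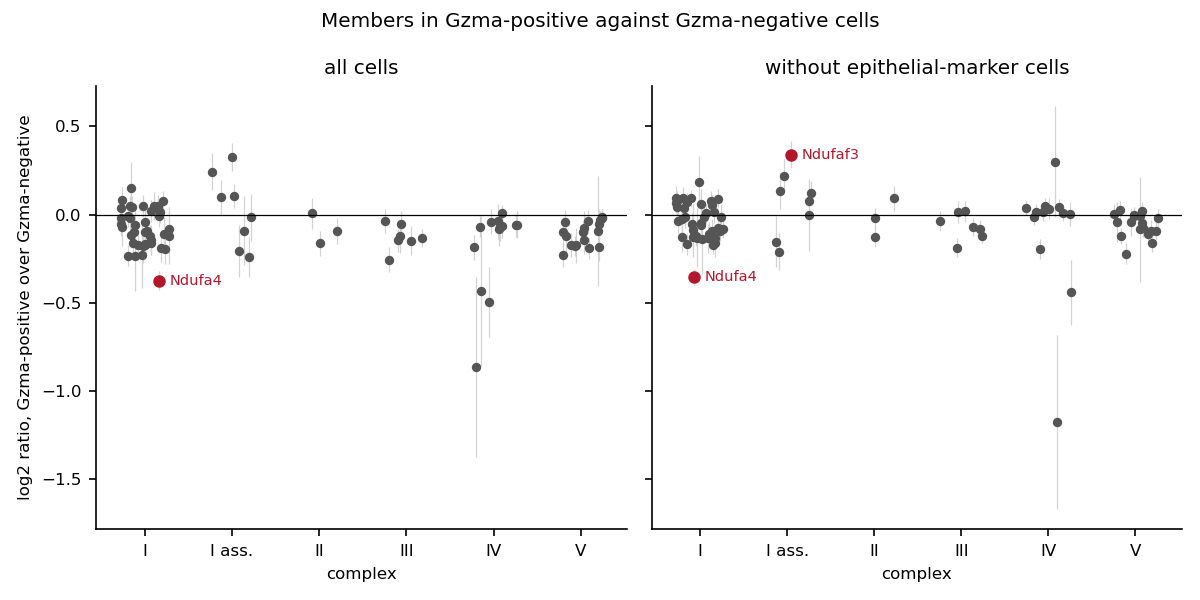
Log2 ratio, Gzma-positive over Gzma-negative cells (y axis), of each member tested, by complex (x axis), over all cells (left) and without epithelial-marker cells (right). Points are edgeR estimates, grey lines 1 standard error, and red points have an adjusted p under 0.05: Ndufa4 in both panels and Ndufaf3 on the right.

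AA467197, whose protein is known to take the place of Ndufa4 in complex IV, was chosen after its values were seen. Without epithelial-marker cells it read 46.6 CPM in Gzma-positive and 27.9 CPM in Gzma-negative TCRβ Tcf7KO cells, and 32.5 CPM against 23.4 CPM in TCRβ Tcf7WT cells. In TCRγδ Tcf7KO cells it read 35.6 CPM in Gzma-positive and 23.3 CPM in Gzma-negative cells, and in TCRγδ Tcf7WT cells 43.6 CPM against 9.86 CPM. It was higher in 4 of 4 libraries, with a log2 ratio of 0.91 ± 0.19 (SE, adjusted p = 0.02 by edgeR). Over all cells the log2 ratio was 0.39 with an adjusted p of 0.364, higher in 3 of 4 libraries.

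AA467197 was far more abundant in epithelial-marker cells, which read between 539.2 and 683.2 CPM of it. Of the other cells, 9.65% had a UMI of it in the TCRβ Tcf7KO library, 5.85% in TCRβ Tcf7WT, 12.8% in TCRγδ Tcf7KO and 8.93% in TCRγδ Tcf7WT, beside 66.7% to 90.9% of epithelial-marker cells, whose median depth was between 2558 and 38230 UMIs. The part of free epithelial RNA in its level in T cells was not tested. Ndufa4 read lower in cells with an AA467197 UMI than in cells without one in both Gzma classes of all 4 libraries, and the interval of the log2 ratio excluded 0 in 3 of these 8 comparisons. The ratio furthest from 0 was in Gzma-positive TCRβ Tcf7KO cells, where Ndufa4 read 309.7 CPM with and 393.4 CPM without an AA467197 UMI. The log2 ratio there was -0.35 (95% interval -0.52 to -0.17). In Gzma-positive TCRβ Tcf7WT cells it was -0.09 (-0.41 to 0.22), and in Gzma-negative TCRβ Tcf7WT cells -0.12 (-0.24 to -0.0015). Cells with an AA467197 UMI were deeper in most comparisons, with a median of 3502 against 3088 UMIs in Gzma-positive TCRβ Tcf7KO cells. Gzma-negative TCRγδ Tcf7WT cells had 3156 against 3158 UMIs. The part of depth in these ratios was not tested.

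**Figure D5:**
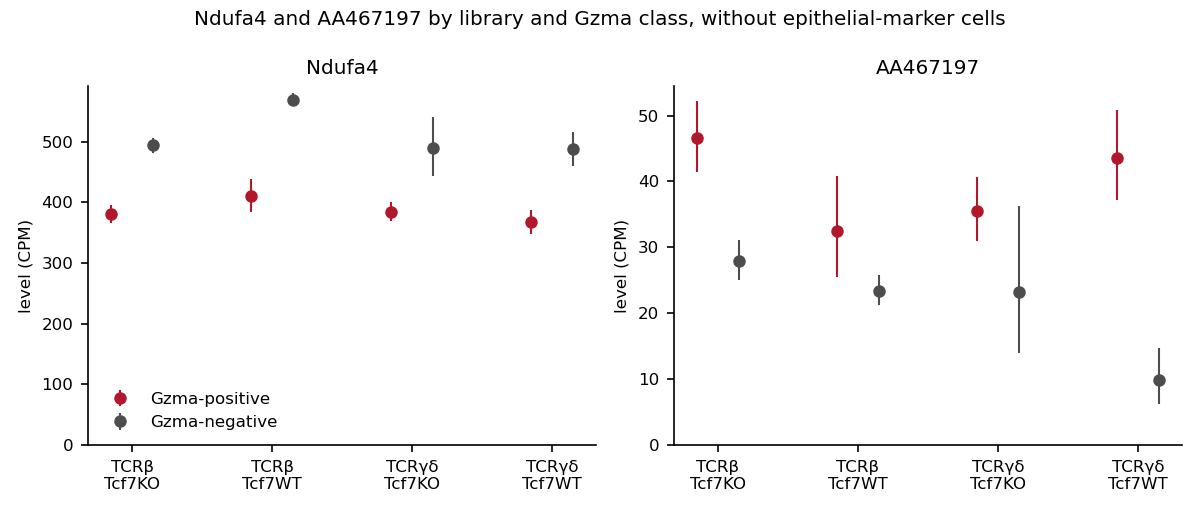
Level in CPM (y axis) of Ndufa4 (left) and AA467197 (right) in Gzma-positive (red) and Gzma-negative (grey) cells of each library (x axis), without epithelial-marker cells. Points are summed counts and lines 95% Poisson intervals; all 4 Gzma-positive points of Ndufa4 lie below, and those of AA467197 above, the Gzma-negative point of the same library.

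Other members did not pass the threshold over all cells. Ndufaf3, an assembly factor of complex I, read 60.5 CPM in Gzma-positive and 49.98 CPM in Gzma-negative TCRβ Tcf7KO cells, and its log2 ratio was 0.33 ± 0.08 (SE, adjusted p = 0.0776 by edgeR), higher in 4 of 4 libraries. Without epithelial-marker cells it was 0.34 with an adjusted p of 0.0281, and members were then called against a background of 3.87% of genes higher and 3.17% lower. Uqcrfs1, the Rieske iron-sulfur protein of complex III, was at -0.26 ± 0.07 (adjusted p = 0.103 by edgeR) and Ndufb5 of complex I at -0.23 ± 0.06 (adjusted p = 0.0914 by edgeR), each lower in 4 of 4 libraries. The 5 lowest ratios, Cox6b2, Cox7a2, Cox7a1, Ndufa4 and Uqcrfs1, ran from -0.86 to -0.26, of which only Ndufa4 was called. Cox7a1 was at 0.30 without epithelial-marker cells and 0.23 without the TCRγδ Tcf7KO library, and Cox6b2 rests on 8 to 31 UMIs per library. The 5 highest were Ndufaf3, Ndufaf7, Ndufa11b, Ndufaf8 and Ndufaf1, from 0.33 to 0.10, and none of these was called. The subunits of complex II, Sdha, Sdhb and Sdhc, were at -0.16, -0.09 and 0.01, and none was called.

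The Gzma difference was also compared between sorts and between genotypes. No member was called in either test. For sort, edgeR called 0 of 89 members, beside 4 of all genes (0.0335%), and 3 members had an unadjusted p under 0.05, beside 6.91% of genes. For genotype, it called 0 of 89, beside 1 of all genes (0.00838%), and 0 members had an unadjusted p under 0.05, beside 3.46%. Without epithelial-marker cells edgeR again called 0 of 89 members in both tests, beside 76 of 11440 genes for sort (0.664%) and 0 (0.0%) for genotype. There 1 member had an unadjusted p under 0.05 for sort, beside 7.59% of genes, and 1 for genotype, beside 3.9%. These interactions were fitted with edgeR only. For Ndufa4 the difference between sorts was 0.01 and that between genotypes -0.00 on the log2 scale, both with adjusted p = 1 by edgeR.

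Genotype and sort differences of the whole set were taken within each Gzma class too, since the libraries differ in how many cells carry Gzma. Over all cells the log2 ratio of the sum, Tcf7KO over Tcf7WT, was 0.12 in Gzma-positive and 0.30 in Gzma-negative TCRγδ cells. Without epithelial-marker cells it was 0.08 in Gzma-positive and 0.10 in Gzma-negative TCRγδ cells, and 0.06 and -0.02 in TCRβ cells. TCRγδ over TCRβ gave 0.09 in Gzma-positive and 0.15 in Gzma-negative Tcf7KO cells, and 0.07 and 0.03 in Tcf7WT cells, all without epithelial-marker cells. Without epithelial-marker cells all 8 of these ratios thus lay between -0.02 and 0.15.

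Related genes outside the set were tested in the same Gzma fit. Of 12 electron carriers and related proteins tested, from a list of 15, 0 were called higher and 1 was called lower in Gzma-positive cells over all cells, beside 0.863% of genes, Slc25a5, an ATP and ADP exchanger, at -0.38 (adjusted p = 0.0457 by edgeR). Without epithelial-marker cells 3 were called lower, beside 3.17% of genes, and 1 higher, beside 3.87%: Slc25a4, its close relative, at -0.44, Slc25a5 at -0.29, Chchd10, a protein of the space between the mitochondrial membranes, at -0.31, and Etfb, a subunit of the electron transfer flavoprotein, at 0.37. Of 39 assembly factors of complexes II to V, 0 were called with and 0 without those cells, and likewise 0 of 20 tricarboxylic acid cycle genes, both by edgeR. Their medians were -0.00 and -0.18 over all cells, beside -0.01 for all genes. Of 16 regulators of mitochondrial biogenesis, 1 was called lower, Myc, at -0.68 (adjusted p = 0.019 by edgeR), and Tfam, a factor that packages mitochondrial DNA, was at -0.19 and was not called.

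Between libraries the lists were counted at the same folds and against the same backgrounds as the members. In TCRβ cells 1 of 12 carriers was at least 25% higher in Tcf7KO and 1 at least 20% lower, 1 of 38 assembly factors was higher and 1 lower, 0 of 20 tricarboxylic acid cycle genes passed either way, and 0 of 16 biogenesis regulators were higher and 2 lower, beside 5.49% of genes higher and 9.57% lower. Pet100, an assembly factor of complex IV, had the log2 ratio 0.66 and Coq10b, a coenzyme Q carrier, 0.61. In TCRγδ cells 0 of 12 carriers passed either way, 1 of 36 assembly factors was higher in Tcf7KO and 3 lower, 2 of 20 tricarboxylic acid cycle genes were higher and 0 lower, and 0 of 13 regulators were higher and 2 lower, beside 10.1% higher and 12.8% lower. Idh2, mitochondrial isocitrate dehydrogenase, was at 0.76 there, and at 0.61 without epithelial-marker cells. The median of the tricarboxylic acid cycle genes was 0.12 over all cells and -0.01 without epithelial-marker cells, where 1 of 19 was higher, beside 6.39%, and 2 lower, beside 13.9%.

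For TCRγδ over TCRβ in Tcf7KO, 3 of 12 carriers were higher and 1 lower, 1 of 37 assembly factors was higher and 2 lower, 1 of 20 tricarboxylic acid cycle genes was higher and 0 lower, and 1 of 16 regulators was higher and 3 lower, beside 14.8% higher and 20.5% lower. Without epithelial-marker cells 2 carriers were higher and 1 lower, and 1 assembly factor was higher and 3 lower. Of the tricarboxylic acid cycle genes 1 was higher and 3 lower, and of the regulators 1 and 5, beside 11.5% and 22.4%. The carrier median was 0.17 over all cells and -0.07 without those cells, and Chchd10 went from 0.41 to -0.30. In Tcf7WT over all cells, 1 of 12 carriers was higher and 0 lower, 2 of 38 assembly factors were higher and 7 lower, 1 of 20 tricarboxylic acid cycle genes was higher and 3 lower, and 0 of 16 regulators were higher and 1 lower, beside 13.2% and 19.8%. Etfb was higher in TCRγδ than in TCRβ cells, at 0.79 in Tcf7KO and 0.57 in Tcf7WT, and Myc was at -0.65 in Tcf7KO and -0.68 in Tcf7WT.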

How the data were processed

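The authors deposited, for each library, whole-number UMI counts per gene and cell, made with a droplet 3′ kit per the labels' protocols. Seurat 3.0.0 and GRCm38 are named in the submitters' processing notes; the aligner, the counting step and the cell filter are not given in the sources used here. The 92 members and the 4 further gene lists were chosen with earlier results of these data known. Levels are UMIs scaled to 1000000 UMIs per library (CPM). Library comparisons have no test; their ratios carry exact conditional 95% intervals, and folds were counted over genes with at least 100 UMIs in both libraries together. These intervals, and those on shares, cover counting error only.

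For the Gzma comparison, counts of cells with at least 1 Gzma UMI and of cells with 0 were summed per library (8 sums) and tested with edgeR 4.0.16 (TMM, filterByExpr, quasi-likelihood, library as block, Benjamini-Hochberg over all genes, R 4.3.3); DESeq2 1.42.0 was an alternative. The fit was also run on simulated counts. These had the same spread for all genes and the same change in each library, so that run cannot give the error rate here. Cells with at least 1% of UMIs in 22 epithelial markers were left out in a parallel run, and thinning to 1500 UMIs used a fixed seed. Cycling cells had at least 3 UMIs in a short proliferation list. No doublet caller was run; restricting cells to 500 to 3500 genes was an alternative. The rule for naming took the 3 most abundant members per complex, those at least 1.5-fold apart in a library comparison, and the 5 highest and 5 lowest in the Gzma comparison. It also took the Sdh genes, tissue isoforms and up to 4 genes from each further list. Not every gene that met it is described above. Left out were Ndufa13, Ndufa2, Uqcr10, Uqcrq, Cox6c, Atp5e and Atp5h, which are among the most abundant, and the isoforms Cox6a1, Cox6b1 and Cox7a2l. Others are named to give a count or a subunit for contrast, chosen after their values were seen. GENCODE M21 and RefSeq gave lengths, 3′ untranslated regions and promoters, and 90 of 92 symbols matched GENCODE.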

Additional observations from a re-analysis of the deposited data

Results flagged for a closer look

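Without epithelial-marker cells, the complex I assembly factors had a log2 ratio, Gzma-positive over Gzma-negative, of -0.04 (interval -0.15 to 0.07) in TCRβ Tcf7WT cells. The other 3 libraries lay away from it, between 0.10 and 0.11. Their intervals were 0.03 to 0.18 in TCRβ Tcf7KO, -0.08 to 0.30 in TCRγδ Tcf7KO and -0.03 to 0.24 in TCRγδ Tcf7WT cells. Each of these overlapped the interval of the TCRβ Tcf7WT library. Uqcrfs1, over all cells, stood at -0.49 in TCRγδ Tcf7KO cells, away from its values in the other 3 libraries. A gap of this kind arises by chance in about 1 in 20 groups.

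For 4 of the complexes and for all members together, the genotype difference over all cells ran in opposite directions in the 2 sorts. The log2 ratio of summed levels, Tcf7KO over Tcf7WT, was 0.12 in TCRγδ and -0.04 in TCRβ cells for complex I, 0.12 and -0.10 for complex II, 0.07 and -0.09 for complex III, 0.09 and -0.03 for complex IV, and 0.12 and -0.03 for all members. The complex V sum was higher in Tcf7KO in both sorts, at 0.18 and 0.03, but in TCRβ cells 9 of its 18 members were above 0 and 9 below. Without epithelial-marker cells the genotype ratio was 0.08 in TCRγδ and -0.04 in TCRβ cells for complex I, and 0.05 and -0.09 for complex II. For complex III it was 0.00 and -0.09, for complex IV 0.02 and -0.03, and for all members 0.07 and -0.02. The TCRγδ intervals of complexes II and III then included 0. The opposite direction of all members depended on the setting: TCRβ cells were at 0.04 with TMM factors, and both sorts were below 0 in cells of 2000 to 4000 UMIs, at -0.02 in TCRγδ and -0.06 in TCRβ cells. The sort difference, TCRγδ over TCRβ, was 0.14 in Tcf7KO and -0.02 in Tcf7WT for complex I, 0.12 and -0.10 for complex II, and 0.12 and -0.05 for complex III. Without epithelial-marker cells it was 0.07 in Tcf7KO and -0.05 in Tcf7WT for complex I, -0.00 and -0.14 for complex II, and 0.01 and -0.09 for complex III, and the intervals of complexes II and III in Tcf7KO then included 0. These differences were not tested, since each group is 1 library. They share the TCRγδ Tcf7KO library, which held 6.12% of its UMIs in epithelial-marker cells.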

How the results depend on the processing

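No paired analysis of genotypes or sorts was possible because each group is 1 library and the labels number no replicates. The Gzma comparison was paired within libraries. Over the 9 alternative settings, taken in the order TMM scaling, DESeq2 size factors, receptor, immunoglobulin and granzyme genes out of the total, cells weighed equally, no epithelial-marker cells, cells with 500 to 3500 genes, no cycling cells, thinning to 1500 UMIs and cells of 2000 to 4000 UMIs (the last chosen after seeing the data), the summed log2 ratio of all members moved as follows. Tcf7KO over Tcf7WT in TCRβ cells gave 0.0409, 0.0383, -0.0202, -0.0495, -0.0225, -0.03, -0.0376, -0.0357 and -0.0588. In TCRγδ cells it gave 0.1677, 0.1695, 0.1382, 0.0655, 0.0656, 0.0333, 0.0865, 0.0341 and -0.0193. TCRγδ over TCRβ gave 0.226, 0.2248, 0.2083, 0.1104, 0.0833, 0.0765, 0.1342, 0.0861 and 0.011 in Tcf7KO. In Tcf7WT it gave 0.0992, 0.0936, 0.0499, -0.0047, -0.0048, 0.0132, 0.0101, 0.0163 and -0.0286. The cause was not tested.

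Within Gzma classes the same ratios were taken without epithelial-marker cells, thinned, and in cells of 2000 to 4000 UMIs, and for Gzma-positive cells also with at least 5 Gzma UMIs. Tcf7KO over Tcf7WT in TCRβ cells gave 0.059, 0.0518, 0.0364 and 0.1067 in Gzma-positive and -0.0226, -0.0359 and -0.0616 in Gzma-negative cells. In TCRγδ cells it gave 0.0825, 0.0678, 0.0113 and 0.0923 in Gzma-positive and 0.1033, 0.0914 and -0.036 in Gzma-negative cells. TCRγδ over TCRβ in Tcf7KO gave 0.0948, 0.0822, 0.0326 and 0.0937 in Gzma-positive and 0.1537, 0.22 and 0.0422 in Gzma-negative cells. In Tcf7WT it gave 0.0712, 0.0661, 0.0577 and 0.1081 in Gzma-positive and 0.0279, 0.0927 and 0.0166 in Gzma-negative cells.

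In the Gzma comparison edgeR called 1 member over all cells. It called 2 without epithelial-marker cells (Ndufa4, Ndufaf3) and 2 after thinning (Ndufa4, Ndufb5). It called 3 with at least 5 Gzma UMIs (Ndufa4, Ndufaf3, Ndufb5) and 3 in cells of 2000 to 4000 UMIs (Ndufa4, Ndufaf3, Cox7a2l). With a Gzmb split it called 0, with no library block 0, and with a library left out 0 to 1. Over all genes the calls were 155 higher and 103 lower, 443 and 363 without epithelial-marker cells, 368 and 458 with at least 5 Gzma UMIs, and 349 and 306 after thinning. They were 367 and 289 in cells of 2000 to 4000 UMIs, 17 and 2 with a Gzmb split, 6 and 1 with no library block, and 235 and 161 with DESeq2. With a library left out they were 23 and 8 (TCRβ Tcf7KO), 12 and 2 (TCRβ Tcf7WT), 196 and 147 (TCRγδ Tcf7KO), and 227 and 105 (TCRγδ Tcf7WT).

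Some single genes changed sign. Cox7a1, Tcf7KO over Tcf7WT in TCRγδ cells, fell to -0.4927 with cells weighed equally, -0.7987 without epithelial-marker cells, -0.8466 in cells with 500 to 3500 genes, -1.0798 thinned and -0.8918 in cells of 2000 to 4000 UMIs. Its TCRγδ over TCRβ ratio in Tcf7KO was -0.0776 without epithelial-marker cells, and its Gzma ratio ran from -0.6849 without the TCRβ Tcf7WT library to 0.2291 without the TCRγδ Tcf7KO library, and was 0.2996 without epithelial-marker cells. Ndufab1 was at -0.1774, TCRγδ over TCRβ in Tcf7KO, in cells of 2000 to 4000 UMIs, and Ndufaf1 at -0.0321 with a Gzmb split. Depth limits the members counted below about 20 UMIs per library, whose ratios have wide intervals.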
